A study of Homo sapiens with 10 samples.

Results

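The ADAM, ADAMTS and ADAMTSL genes are those whose symbol is ADAM, ADAMTS or ADAMTSL followed by a number. By this rule on names alone, 46 of the 23170 gene entries and 75 of the 37557 isoform entries in the deposited RNA-seq tables belong to the family. All 10 samples are of PC3, a line of human prostate cancer cells, and they fall into 4 groups. PC3-Epi (2 samples) is a stable epithelial subpopulation of luciferase-positive PC3 cells. PC3-EMT14 (3 samples) is 1 mesenchymal subpopulation, isolated after co-culture of PC3-Epi with macrophages derived from human monocytes. The other groups were made from PC3-EMT14 by lentiviral overexpression of a zinc-finger transcription factor, OVOL1 in PC3-EMT14-OVOL1 (3 samples) and OVOL2 in PC3-EMT14-OVOL2 (2 samples), here called the OVOL1 line and the OVOL2 line. The PC3-EMT14 samples are not labelled as carrying an empty vector, so the transduction itself and the OVOL gene cannot be told apart in these tables.

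ADAMs are membrane-anchored proteins with a metalloproteinase domain and a disintegrin domain. The catalytically active members cleave the ectodomains of other membrane proteins, a process called shedding, which releases EGF receptor ligands, adhesion molecules and cytokine receptors from the cell surface. ADAMTS proteases are secreted, carry thrombospondin repeats and cleave matrix proteins such as proteoglycans and procollagens, whereas ADAMTSL proteins resemble them but lack the protease domain. In carcinomas these genes are studied for their part in growth factor release, matrix turnover and invasion.

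The tables give 1 FPKM value per line and comparison, the authors' pooled estimate of fragments. It is scaled by transcript length and by the upper quartile of counts rather than by total depth, so that levels of different genes can be set side by side. No value of a single sample is given, the depth of each sample is unknown, and no SD, interval or test over samples could be computed. No difference below has therefore been set against the spread between replicates. A gene was counted as past 2-fold when its ratio within 1 table was at least 2 or at most 0.5 and its mean over the 4 lines reached 1 FPKM. Levels of family genes in PC3-EMT14 are means of its values in 3 tables, which for the members over this floor differed by a factor of 0.989 to 1.03. For genes outside the family, the PC3-EMT14 level is that of the table with the OVOL1 line, except that OVOL2 is taken from the table with the OVOL2 line. Those are the same libraries scaled again, so this range measures processing and not replicate error. The 3 comparisons against PC3-EMT14 share its libraries, and their ratios are given side by side as values.

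The overexpressed genes were highest where the labels place them. OVOL1 was 11.3 FPKM in PC3-EMT14-OVOL1 against 0.0238 FPKM in PC3-EMT14, and OVOL2 was 831 FPKM in PC3-EMT14-OVOL2 against 0.370 FPKM. The epithelial cadherin gene CDH1 stood at 16.2 FPKM in the OVOL1 line, 39.2 in the OVOL2 line and 50.6 in PC3-Epi, against 0.981 in PC3-EMT14. The mesenchymal filament gene VIM ran the other way, at 265 FPKM in PC3-EMT14, 183 in the OVOL1 line, 76.9 in the OVOL2 line and 42.5 in PC3-Epi. Of 10 macrophage markers, 9 stayed under the floor, and the exception was CD68, a lysosomal gene also expressed outside macrophages, at 53.0 FPKM in PC3-EMT14, 51.2 in the OVOL1 line, 57.8 in the OVOL2 line and 13.2 in PC3-Epi. The summed level of the 10 was 53.2 FPKM in PC3-EMT14, 51.6 in the OVOL1 line, 58.2 in the OVOL2 line and 13.5 in PC3-Epi, so it was lower in PC3-Epi through CD68.

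Promoter sequence is shown for 3 members: ADAM8, which had the largest ratio in an OVOL line, and ADAM12 and ADAMTSL3, which were both past 2-fold lower in PC3-Epi. ADAMTS1, also past 2-fold lower there, and ADAMTS3, past 2-fold higher, are not shown. Each window runs 5′ to 3′ on the gene's strand from 250 bases before to 50 bases after the RefSeq start, on GRCh38.p14. Capitals mark CACCTG or its reverse complement CAGGTG, the E-box recognised by ZEB1, a repressor of epithelial genes. ADAM8 lies at chr10:133276819-133277118 on the minus strand, ADAM12 at chr10:126388428-126388727 on the minus strand and ADAMTSL3 at chr15:83653873-83654172 on the plus strand.
ADAM8: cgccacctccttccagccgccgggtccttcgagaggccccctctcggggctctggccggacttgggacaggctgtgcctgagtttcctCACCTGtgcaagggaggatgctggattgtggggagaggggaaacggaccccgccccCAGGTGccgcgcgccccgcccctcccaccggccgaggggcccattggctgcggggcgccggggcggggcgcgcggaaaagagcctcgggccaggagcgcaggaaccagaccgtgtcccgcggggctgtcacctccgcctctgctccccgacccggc
ADAM12: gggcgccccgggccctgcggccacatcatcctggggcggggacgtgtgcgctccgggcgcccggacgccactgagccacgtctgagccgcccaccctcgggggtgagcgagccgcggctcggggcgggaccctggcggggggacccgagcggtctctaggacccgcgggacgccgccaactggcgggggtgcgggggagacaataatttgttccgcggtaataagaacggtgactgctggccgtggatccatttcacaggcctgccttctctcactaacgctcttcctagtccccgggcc
ADAMTSL3: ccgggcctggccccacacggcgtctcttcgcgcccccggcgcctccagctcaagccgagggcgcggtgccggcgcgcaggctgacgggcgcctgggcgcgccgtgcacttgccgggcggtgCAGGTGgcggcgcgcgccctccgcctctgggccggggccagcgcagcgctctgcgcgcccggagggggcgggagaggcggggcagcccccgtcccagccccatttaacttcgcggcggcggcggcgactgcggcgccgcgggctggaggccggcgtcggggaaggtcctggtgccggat
The ADAM8 window held CACCTG 162 bases and CAGGTG 106 bases upstream of the start. The ADAMTSL3 window held CAGGTG 129 bases upstream, and the ADAM12 window held neither. Across all RefSeq promoter windows of this length 20.6% of 35116 held the motif on either strand, as did 8 of the 30 windows matched to 29 family symbols. Of 12 matched members over the floor, 5 held it: ADAM8, ADAMTSL3, ADAM17, ADAM19 and ADAM21. It was thus also present in members that were not past 2-fold in any comparison, such as ADAM17. The second motif searched was CCGTTA or its reverse complement TAACGG, a form of the core of the OVOL2 consensus given by the authors. Other forms that this consensus allows were not searched. The motif was in 3.07% of all windows and in 2 of the 30, neither of them from a member over the floor. A match describes the letters in a window, and binding was not measured here.

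Of the 46 members, 16 had a mean of at least 1 FPKM (34.8%), against 52.2% of all genes in the tables. These were 8 of 12 catalytic ADAMs, 2 of 8 ADAMs without an active site, 2 of 7 proteoglycan-cleaving ADAMTS genes, 1 of 3 procollagen-processing ADAMTS genes and 3 of 5 ADAMTSL genes. None of the 9 other ADAMTS genes and neither of 2 entries taken as pseudogenes or non-coding reached the floor. The summed FPKM of the 46 was 369 in PC3-EMT14, 383 in the OVOL1 line, 393 in the OVOL2 line and 277 in PC3-Epi. ADAM15, ADAM9, ADAM8 and ADAM19 supplied between 81.7% and 85.0% of that sum in each line. ADAM15 was the most abundant member in every line, yet its share ran from 47.3% in PC3-EMT14 to 35.1% in PC3-Epi. ADAM8 had 8.65% of the sum in PC3-EMT14, 14.5% in the OVOL1 line, 24.3% in the OVOL2 line and 11.4% in PC3-Epi, and in the OVOL2 line it was the second most abundant member. The sum, shares and order in the OVOL2 line include ADAM9, whose test status in both comparisons with that line was marked as failed by the authors' software. Secreted ADAMTS genes were a small part, summing to 14.6 FPKM in PC3-EMT14, 13.4 in the OVOL1 line, 19.1 in the OVOL2 line and 11.5 in PC3-Epi.

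**Figure D1:**
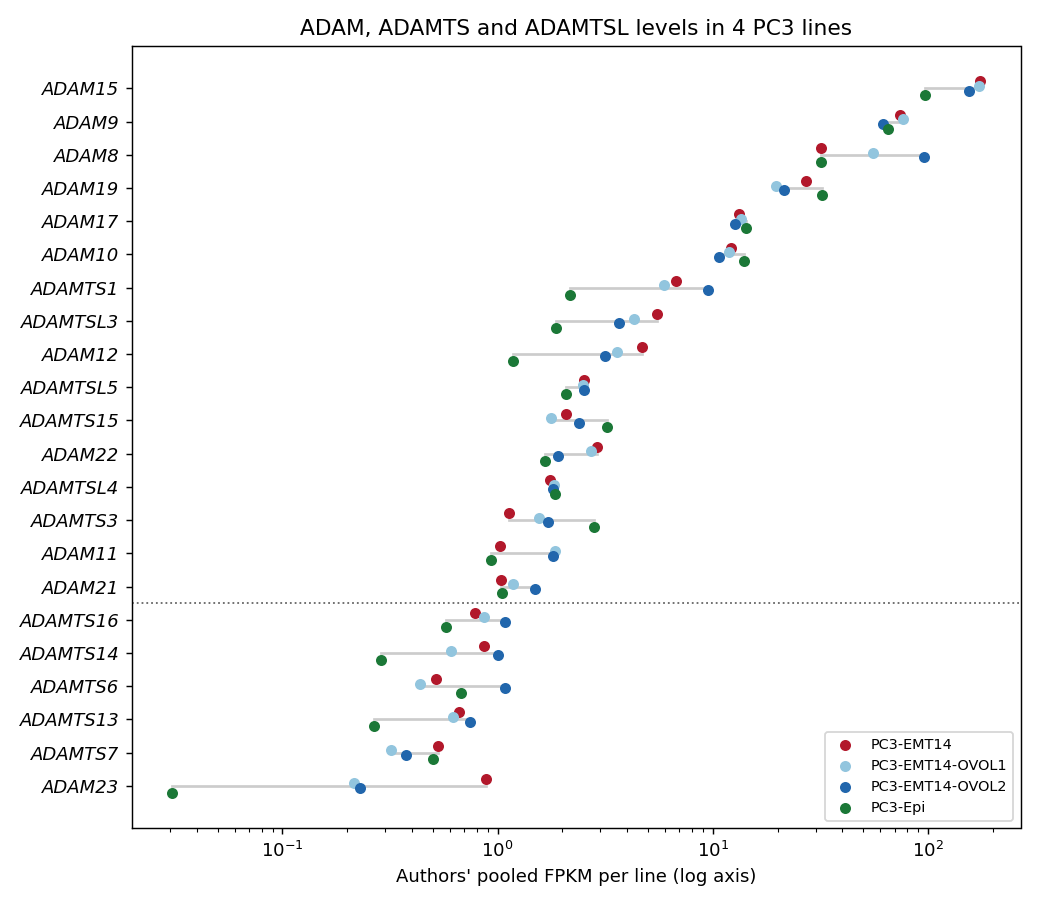
Authors' pooled FPKM (log axis) of the 16 members with a mean of at least 1 FPKM and, under the dotted line, of 6 that reached 0.5 FPKM in a line, with 1 point per line and no error bar because no replicate values are given. ADAM8 spread from 31.7 FPKM in PC3-Epi to 95.4 FPKM in PC3-EMT14-OVOL2, while ADAM17 stayed between 12.7 and 14.2 FPKM.

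With OVOL1, 0 of the 16 members were past 2-fold, where the background over 12106 genes at the same floor was 3.67% (2.54% higher and 1.13% lower). The median log2 ratio of the members was -0.00 and that of all genes 0.00, and 8 members lay above 0 and 8 below. With OVOL2, 1 of the 16 members, ADAM8, was past 2-fold higher and 0 were lower, against a background of 6.43% (4.04% higher and 2.4% lower). The median log2 ratio with OVOL2 was -0.01 for the members and -0.04 for all genes. In PC3-Epi, 4 of the 16 members (25%) were past 2-fold, against a background of 13.9%. ADAMTS3 was higher, where the background was 6.44%, and ADAM12, ADAMTS1 and ADAMTSL3 were lower, where it was 7.46%. The median log2 ratio in PC3-Epi was -0.10 for the members and -0.02 for all genes. The median size of the log2 ratio, sign aside, was 0.19 for the members and 0.15 for all genes with OVOL1, and 0.42 and 0.20 with OVOL2. In PC3-Epi it went the other way, at 0.26 for the members and 0.35 for all genes. With 16 members, the counts differ from these backgrounds by fewer than 2 genes, and no test was made of the difference.

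Set directly against the OVOL1 line in a separate table, the OVOL2 line had 0 of 16 members past 2-fold, with a background of 2.75%. The OVOL genes were carried in different lentiviral constructs and stood at unlike levels, OVOL1 at 11.3 FPKM and OVOL2 at 831 FPKM. Factor, construct and level therefore cannot be told apart in this comparison. The median log2 ratio was -0.00 for the members and -0.04 for all genes, and its median size 0.16 and 0.15. ADAM8 (0.79), ADAMTS1 (0.70) and ADAMTS15 (0.45) had the largest log2 ratios in favour of OVOL2, and ADAM22 (-0.49) and ADAM9 (-0.29) the largest in favour of OVOL1. The authors' software marked the test status of ADAM9 as failed in both tables with the OVOL2 line.

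**Figure D2:**
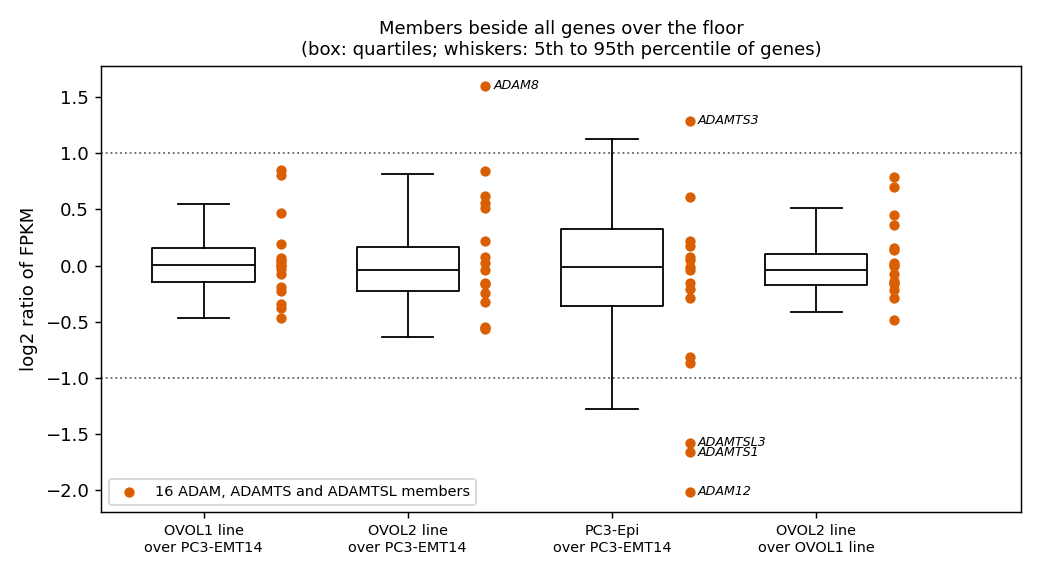
Log2 ratios of the 16 members (points) beside all 12106 genes over the floor (box, quartiles; whiskers, 5th to 95th percentile) in each of the 4 comparisons. ADAM8 stands above the 2-fold line with OVOL2, and in PC3-Epi ADAMTS3 stands above it and ADAM12, ADAMTS1 and ADAMTSL3 below it.

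Among the catalytic ADAMs, ADAM8 had the largest ratio in both OVOL lines and lay close to its mesenchymal level in PC3-Epi. ADAM8 (XLOC_003052), a sheddase first described in leukocytes, lies on chromosome 10 from 135075920 to 135090407 of hg19 on the minus strand. Its level was 31.9 FPKM in PC3-EMT14, 55.6 in the OVOL1 line, 95.4 in the OVOL2 line and 31.7 in PC3-Epi. Both OVOL lines were thus higher, and the epithelial line sat at the level of the mesenchymal one. The log2 ratio to PC3-EMT14 was 0.81 with OVOL1 (1.75-fold), 1.60 with OVOL2 (3.03-fold) and -0.04 in PC3-Epi. With OVOL2, 97.4% of the genes over the floor had a lower ratio than ADAM8. Among genes within 2-fold of its mean level, the 5th to 95th percentile of the log2 ratio ran from -0.49 to 0.50 with OVOL2 (2358 genes) and from -0.29 to 0.43 with OVOL1 (2359 genes). ADAM8 was outside both ranges. The macrophage markers CD14, CD163, PTPRC, CSF1R, ITGAM, MSR1, MRC1, TYROBP and FCER1G were each at most 0.176 FPKM in every line. CD68 was the exception, at 53.0 FPKM in PC3-EMT14, 51.2 in the OVOL1 line, 57.8 in the OVOL2 line and 13.2 in PC3-Epi. Whether macrophages contributed to the ADAM8 values was not tested.

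ADAM12 ran in the opposite direction. ADAM12 (XLOC_003037), which encodes meltrin alpha, a metalloproteinase of mesenchymal and muscle precursor cells, lies on chromosome 10 from 127702902 to 128077127 on the minus strand. Its level was 4.69 FPKM in PC3-EMT14, 3.59 in the OVOL1 line, 3.16 in the OVOL2 line and 1.18 in PC3-Epi. Every other line was lower than PC3-EMT14, and PC3-Epi was lowest. The log2 ratios were -0.38, -0.55 and -2.01, the last a 4.04-fold difference. In PC3-Epi, 2.64% of the genes over the floor had a lower ratio, and the 5th percentile of 3310 genes of like level was -1.65. With the OVOL genes ADAM12 stayed inside the range of like genes, whose 5th percentile was -0.59 with OVOL1 and -0.77 with OVOL2.

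ADAM15 (XLOC_000720), whose disintegrin domain binds integrins, lies on chromosome 1 from 155023762 to 155035252 on the plus strand. Its level was 175 FPKM in PC3-EMT14, 173 in the OVOL1 line, 154 in the OVOL2 line and 97.2 in PC3-Epi. It was the member with the largest absolute difference in PC3-Epi, although at a log2 ratio of -0.87 (1.83-fold lower) it did not pass 2-fold. With OVOL1 and OVOL2 the log2 ratios were -0.00 and -0.16. ADAM9, a broadly expressed sheddase, was 74.3 FPKM in PC3-EMT14, 76.4 in the OVOL1 line, 62.0 in the OVOL2 line and 65.3 in PC3-Epi, with log2 ratios of 0.05, -0.24 and -0.21. Its test status in both comparisons with the OVOL2 line was marked as failed.

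The principal sheddases ADAM17 and ADAM10 differed little between the lines. ADAM17, the convertase of TNF and of several EGF receptor ligands, was 13.3 FPKM in PC3-EMT14, 13.5 in the OVOL1 line, 12.7 in the OVOL2 line and 14.2 in PC3-Epi. ADAM10, the alpha-secretase that also cleaves Notch receptors and E-cadherin, was 12.2, 11.9, 10.7 and 14.0 FPKM in the same order. Their log2 ratios lay between -0.17 and 0.17 in all 3 comparisons against PC3-EMT14. The ADAM10 entry spans HSP90AB4P, a heat shock pseudogene, whose part in the value was not tested. The annotated coding gene IAH1 overlaps the ADAM17 locus, and its part was not tested either. ADAM19, meltrin beta, which sheds neuregulins, was 27.1 FPKM in PC3-EMT14, 19.6 in the OVOL1 line, 21.4 in the OVOL2 line and 32.2 in PC3-Epi. It was lower in both OVOL lines (log2 ratio -0.46 and -0.32) and higher in PC3-Epi (0.22). With OVOL1 it lay outside the range of like genes, whose 5th percentile was -0.34, but it did not pass 2-fold. ADAM21, a gene best known from testis, stayed near the floor at 1.03 FPKM in PC3-EMT14, 1.18 in the OVOL1 line, 1.5 in the OVOL2 line and 1.04 in PC3-Epi.

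**Figure D3:**
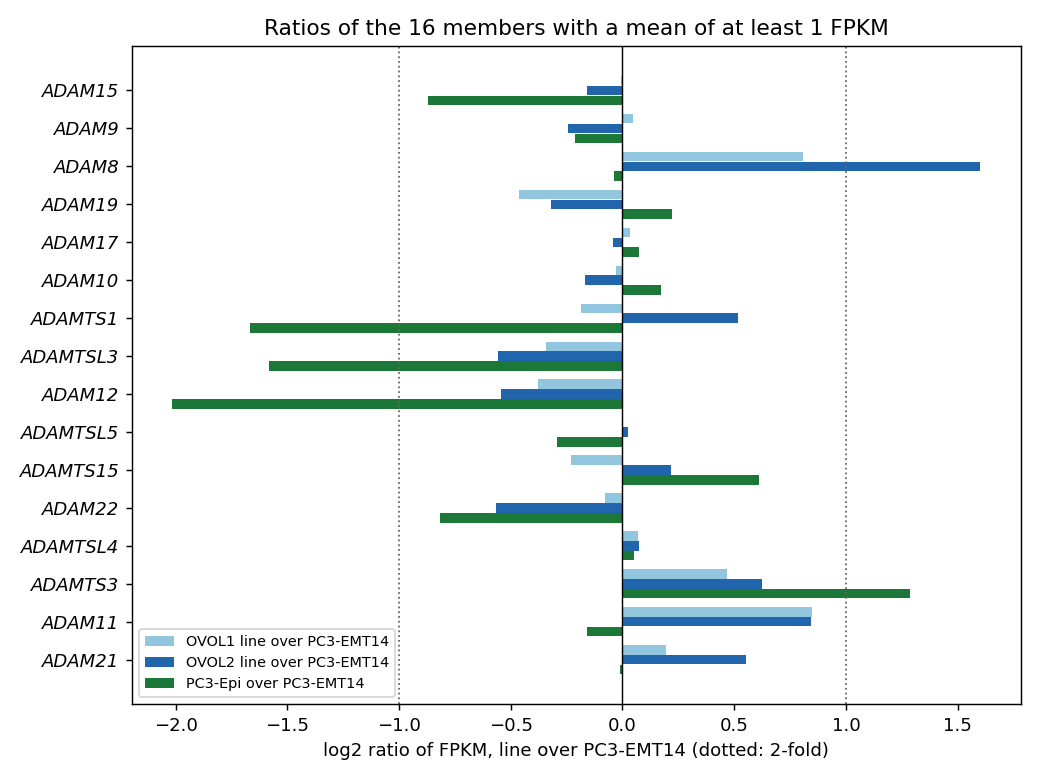
Log2 ratio of FPKM of each line over PC3-EMT14 for the 16 members, ordered by level, with 1 bar per comparison and dotted lines at 2-fold. ADAM12, ADAMTSL3, ADAM22 and ADAM15 lie below 0 in all 3 comparisons, ADAMTS3 and ADAMTSL4 above 0 in all 3, and ADAM8 and ADAM11 are above 0.8 with both OVOL genes and below 0 in PC3-Epi.

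The ADAMs without an active site act in cell adhesion and, in neurons, as receptors of LGI proteins. ADAM22 (XLOC_019603; chromosome 7, 87563566 to 87832204) was 2.88 FPKM in PC3-EMT14, 2.72 in the OVOL1 line, 1.92 in the OVOL2 line and 1.66 in PC3-Epi. Its log2 ratios were -0.08, -0.57 and -0.82, and in the direct comparison the OVOL2 line stood 0.49 below the OVOL1 line. ADAM11 was 1.03 FPKM in PC3-EMT14, 1.84 in the OVOL1 line, 1.81 in the OVOL2 line and 0.936 in PC3-Epi. Like ADAM8 it was higher in both OVOL lines (log2 ratio 0.85 and 0.84) and not in PC3-Epi (-0.16), but it was inside the range of genes of like level, whose 95th percentile was 0.94 with OVOL1 and 1.52 with OVOL2. ADAM23 (XLOC_011999; chromosome 2, 207308368 to 207482679) was under the floor, at 0.884 FPKM in PC3-EMT14, 0.216 in the OVOL1 line, 0.230 in the OVOL2 line and 0.0308 in PC3-Epi. Its log2 ratios of -2.03, -1.92 and -4.87 all rest on values below 1 FPKM. The genes of their ligands, LGI1 to LGI4, summed to at most 0.0886 FPKM in any line.

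The secreted proteases split between lines. ADAMTS1 (XLOC_013550; chromosome 21, 28208606 to 28217728), which cleaves the proteoglycans aggrecan and versican, was 6.77 FPKM in PC3-EMT14, 5.92 in the OVOL1 line, 9.54 in the OVOL2 line and 2.17 in PC3-Epi. The OVOL2 line was highest and PC3-Epi lowest. The log2 ratios were -0.19 in the OVOL1 line, 0.52 in the OVOL2 line and -1.67 in PC3-Epi (3.17-fold lower). The 5th percentile of like genes in PC3-Epi was -1.26. In the direct comparison the OVOL2 line stood 0.70 above the OVOL1 line, where the 95th percentile of like genes was 0.50. ADAMTS15, a second proteoglycan-cleaving member, was 2.08 FPKM in PC3-EMT14, 1.77 in the OVOL1 line, 2.38 in the OVOL2 line and 3.23 in PC3-Epi, with log2 ratios of -0.23, 0.22 and 0.61.

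ADAMTS3 (XLOC_015911; chromosome 4, 73146687 to 73434516), which removes the amino-terminal propeptide of procollagen and activates VEGF-C, was the member past 2-fold higher in PC3-Epi. Its level was 1.12 FPKM in PC3-EMT14, 1.55 in the OVOL1 line, 1.71 in the OVOL2 line and 2.80 in PC3-Epi. All 3 lines were higher than PC3-EMT14, with log2 ratios of 0.47, 0.62 and 1.29. The value in PC3-Epi was inside the range of like genes, whose 95th percentile was 2.10, and with 1 FPKM added to both values the log2 ratio was 0.82, under 2-fold.

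The ADAMTSL genes encode matrix glycoproteins. ADAMTSL3 (XLOC_006980; chromosome 15, 84322838 to 84708593) was 5.50 FPKM in PC3-EMT14, 4.32 in the OVOL1 line, 3.68 in the OVOL2 line and 1.87 in PC3-Epi. Its order of lines was that of ADAM12. The log2 ratios were -0.34, -0.56 and -1.58, against a 5th percentile of like genes of -0.55, -0.72 and -1.54. ADAMTSL5 was 2.51 FPKM in PC3-EMT14, 2.50 in the OVOL1 line, 2.52 in the OVOL2 line and 2.09 in PC3-Epi. ADAMTSL4, a fibrillin-binding protein, was 1.75, 1.83, 1.82 and 1.85 FPKM in the same order, the smallest range among the 16 members. The ADAMTSL4 entry also spans the microRNA gene MIR4257. Annotated coding genes overlap both loci, MCL1 and AL356356.1 that of ADAMTSL4 and PLK5 that of ADAMTSL5. Their part in the values was not tested.

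Of the 30 members under the floor, 5 were listed at 0 in all 4 lines: ADAM2, ADAM6, ADAM7, ADAM18 and ADAM30. A further 19 were above 0 but under 0.5 FPKM in every line, and 15 of these stayed under 0.2 FPKM, among them the aggrecanases ADAMTS4 and ADAMTS5 and the lymphocyte gene ADAM28. The remaining 6 reached 0.5 FPKM in a line: ADAM23, ADAMTS6, ADAMTS7, ADAMTS13, ADAMTS14 and ADAMTS16. ADAMTS6 was highest with OVOL2, at 1.09 FPKM against 0.519 in PC3-EMT14, 0.438 with OVOL1 and 0.678 in PC3-Epi. ADAMTS14, the second procollagen protease, was 0.860 FPKM in PC3-EMT14, 0.605 in the OVOL1 line, 1.00 in the OVOL2 line and 0.288 in PC3-Epi. Like ADAMTS1, it was highest with OVOL2 and lowest in PC3-Epi. ADAMTS13, which cleaves von Willebrand factor, was 0.661, 0.623, 0.742 and 0.265 FPKM in the same order, but its entry spans C9orf96 and REXO4 as well. ADAMTS9, singled out after its values were seen, was 0.493 FPKM in PC3-EMT14, 0.413 in the OVOL1 line, 0.174 in the OVOL2 line and 0.00526 in PC3-Epi.

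Isoform entries carry only the locus of their gene, so the exons that separate them are not given. Among family genes with more than 1 isoform entry, 14 isoforms of 7 genes had a mean of at least 0.5 FPKM. An isoform's share is its FPKM over the summed FPKM of all isoforms of the gene. Against PC3-EMT14, a share differed by at least 20 percentage points for 0 of the 14 in the OVOL1 line, 0 in the OVOL2 line and 1 in PC3-Epi, where the backgrounds over isoforms of all genes chosen in the same way were 2.44%, 4.09% and 5.77%. The 1 isoform was TCONS_00001173, the main form of ADAM15, with 87.9% of the gene in PC3-EMT14, 84.1% in the OVOL1 line, 82.3% in the OVOL2 line and 63.5% in PC3-Epi. A second form, TCONS_00001176, held 7.58%, 8.64%, 9.68% and 23.7% in the same order. In FPKM the main form was 153 in PC3-EMT14 and 61.7 in PC3-Epi, and the second form 13.2 and 23.0. The lower ADAM15 level in PC3-Epi thus lay in the main form, while the second form was higher.

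The forms of ADAM8 and ADAM12 were picked out after their values were seen. For ADAM8, the main form TCONS_00005124 held 96.0% of the gene in PC3-EMT14, 94.6% in the OVOL1 line, 93.4% in the OVOL2 line and 93.4% in PC3-Epi. The higher level in the OVOL lines therefore lay in the main form, at 30.6 FPKM in PC3-EMT14, 52.7 in the OVOL1 line, 89.2 in the OVOL2 line and 29.6 in PC3-Epi. A minor form, TCONS_00005125, was close to 0 in PC3-EMT14 and was 1.12 FPKM in the OVOL1 line, 3.57 in the OVOL2 line and 1.02 in PC3-Epi. For ADAM12, the minor form TCONS_00005108 held 10.8% in PC3-EMT14, 12.2% in the OVOL1 line, 21.0% in the OVOL2 line and 8.20% in PC3-Epi. For ADAM22, TCONS_00031936 was 1.01 FPKM in PC3-EMT14, 0.837 in the OVOL1 line, 0.396 in the OVOL2 line and 0.431 in PC3-Epi, while the main form TCONS_00031935 was 1.66, 1.66, 1.16 and 1.13 FPKM.

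**Figure D4:**
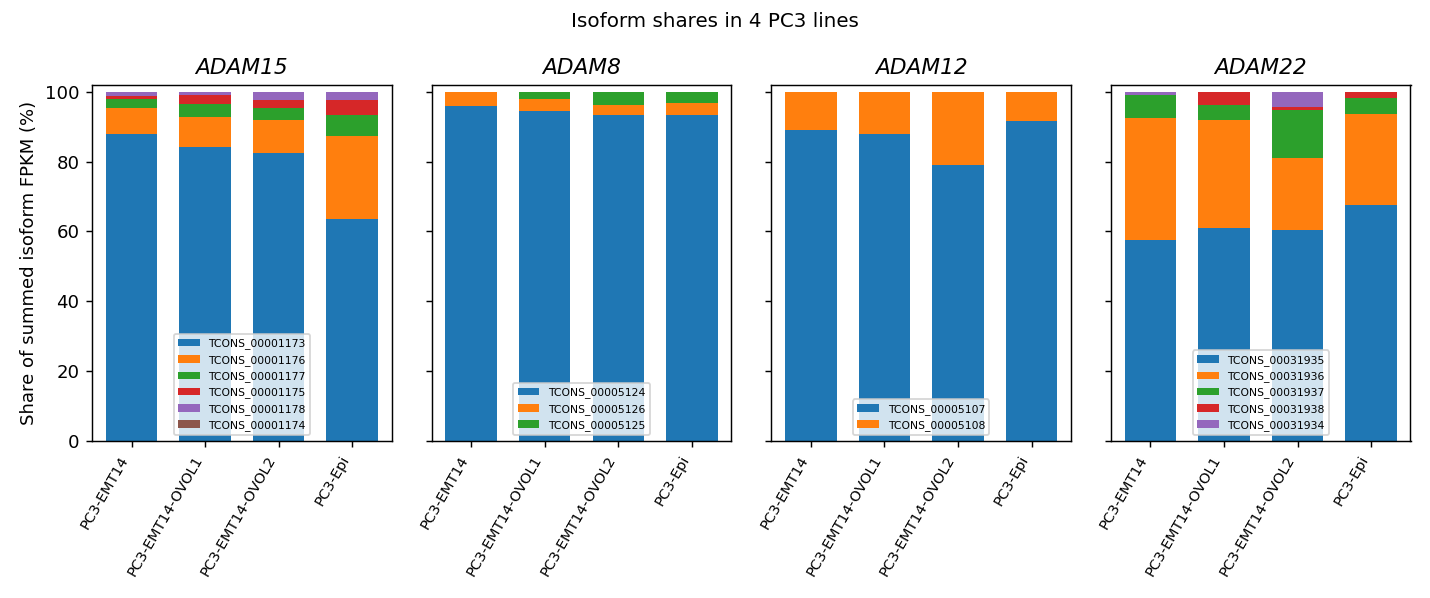
Share (%) of each isoform in the summed isoform FPKM of ADAM15, ADAM8, ADAM12 and ADAM22 in the 4 lines, each bar adding to the whole. The main form of ADAM15 goes from 87.9% in PC3-EMT14 to 63.5% in PC3-Epi, while that of ADAM8 stays between 93.4% and 96.0%.

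The genes that act with the family were read by lists. Of 5 inhibitors, TIMP1 to TIMP4 and RECK, 4 were over the floor. With OVOL1 and OVOL2, 0 of these were past 2-fold, beside 3.67% and 6.43% of all genes. In PC3-Epi 2 were lower, where 7.46% of all genes were. TIMP1, a secreted inhibitor of metalloproteinases, was 340 FPKM in PC3-EMT14, 312 in the OVOL1 line, 392 in the OVOL2 line and 136 in PC3-Epi (log2 ratio -1.35 in PC3-Epi), and TIMP4 had a log2 ratio of -1.28 there. TIMP3, the inhibitor with the broadest action on ADAMs, was at most 0.00914 FPKM in every line. Of 8 partners that carry ADAM10 or ADAM17 to the surface, 7 were over the floor. The only one past 2-fold was the tetraspanin gene TSPAN10, lower in PC3-Epi (-1.45), where 7.46% of all genes were. Lists this short would hold few genes past 2-fold at such shares. The convertases that activate ADAM precursors, FURIN and PCSK7, were not past 2-fold in any of the 3 comparisons against PC3-EMT14, with log2 ratios from -0.21 to 0.52. PCSK5 was under the floor, with 1.37 FPKM listed for PC3-EMT14 but 0.0100 FPKM for PC3-Epi.

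The EGF family ligands, which are shed mainly by ADAM17 and ADAM10, differed more than their sheddases. Of 7 entries of 6 genes over the floor, 2 were past 2-fold higher in the OVOL1 line, 4 in the OVOL2 line and 4 in PC3-Epi, and 1 was lower in PC3-Epi. The share of all genes past 2-fold higher was 2.54%, 4.04% and 6.44%. The list was chosen with earlier results of these data known, and AREG counts as 2 of its entries. EPGN and 1 entry of AREG were past 2-fold with OVOL1, EPGN, both AREG entries and BTC with OVOL2, and EPGN, both AREG entries and TGFA in PC3-Epi, where EGF was the lower one (log2 ratio -1.03). The median log2 ratio of the entries was 0.41, 1.04 and 1.04, beside 0.00, -0.04 and -0.02 for all genes. EPGN, the epigen gene, was 4.62 FPKM in PC3-EMT14, 15.1 in the OVOL1 line, 23.3 in the OVOL2 line and 11.2 in PC3-Epi. AREG, the amphiregulin gene, has a pair of neighbouring entries that could split reads, so their values are uncertain. The first had log2 ratios of 0.99, 1.64 and 2.11 and the second of 1.49, 2.35 and 2.18. TGFA was 11.0 FPKM in PC3-EMT14, 14.6 in the OVOL1 line, 21.6 in the OVOL2 line and 23.1 in PC3-Epi. HBEGF was not past 2-fold, with log2 ratios of -0.21, 0.25 and -0.30.

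Of 10 other shed membrane proteins over the floor, 3 were past 2-fold higher in each comparison against PC3-EMT14, beside the same shares of all genes: CDH1, the chemokine gene CXCL16 and the adhesion gene L1CAM. CDH1 and L1CAM were under 1 FPKM in PC3-EMT14 (0.981 and 0.521) and reached the floor only through the other lines. Their place among the genes counted higher thus follows in part from the floor. CDH1 is also the epithelial gene set beside the labels above. CXCL16 was 6.20 FPKM in PC3-EMT14, 16.2 in the OVOL1 line, 20.3 in the OVOL2 line and 19.9 in PC3-Epi. L1CAM was 0.521, 1.15, 2.94 and 2.02 FPKM in the same order. The receptor gene IL6R was lower in PC3-Epi (log2 ratio -2.08) and had log2 ratios of -0.08 and 0.04 with OVOL1 and OVOL2. NOTCH1, NOTCH2, APP, CD44, CDH2 and MICA were not past 2-fold. Of 10 matrix substrates of ADAMTS proteases, COL1A1 was over the floor and was not past 2-fold. Shedding, secretion and protein levels were not measured in these tables.

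**Figure D5:**
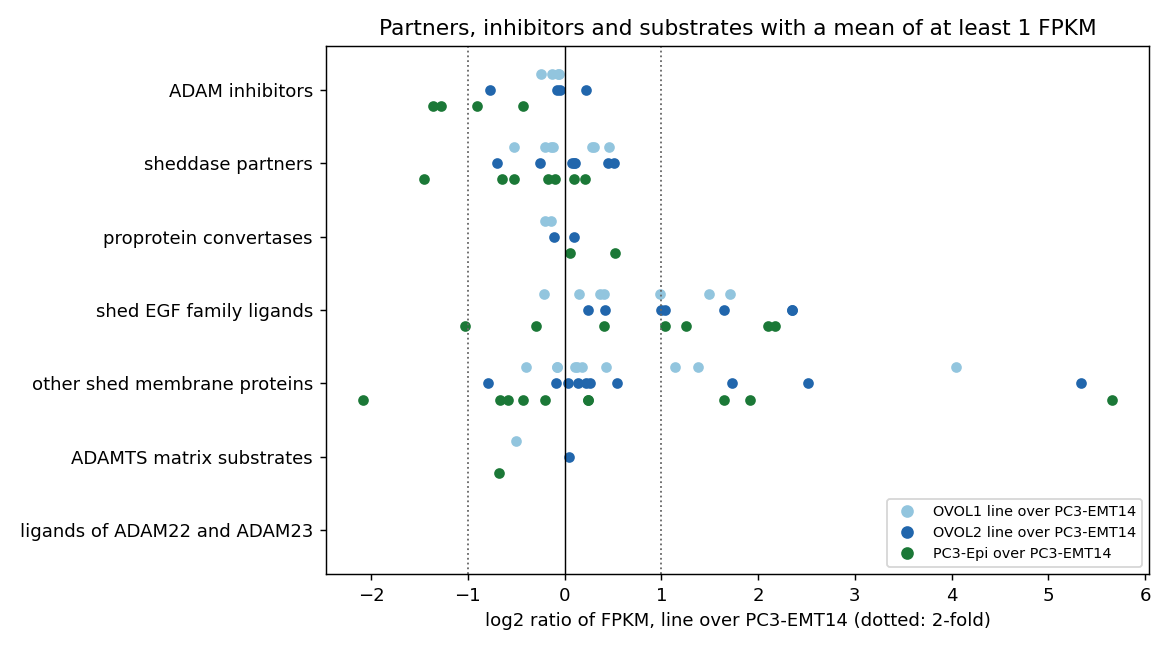
Log2 ratio of FPKM of each line over PC3-EMT14 for genes over the floor in 7 lists that act with the family, with 1 point per gene entry and dotted lines at 2-fold. The EGF family ligands reach 2.35 with OVOL2 while the sheddase partners lie between -0.70 and 0.51 there, and no ligand of ADAM22 or ADAM23 was over the floor.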

How the data were processed

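RNA was sequenced from 10 samples of 4 PC3 lines. Reads were aligned by the authors to the UCSC hg19 transcriptome with TopHat, checked with FastQC, and compared in pairs with Cuffdiff, with upper-quartile scaling, correction for reads with several matches and correction for sequence bias. The authors deposited 8 tables, of genes and of isoforms for each of 4 comparisons, with 1 FPKM value per line. These tables also hold the authors' own fold changes, test statistics, p-values and q-values, which were not used. Columns of per-sample values left unused number 0. Depth per sample is unknown.

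Members were found by symbol. Ratios were taken within a table without a pseudocount, in Python 3.11.15 with pandas 2.3.3, numpy 2.4.6 and matplotlib 3.10.9. Past 2-fold means a ratio of at least 2 or at most 0.5 at a mean of at least 1 FPKM over the 4 lines. The counting code was checked on simulated ratios of known size, which does not bear on the spread between replicates. Named are all members over this floor, those reaching 0.5 FPKM in a line, up to 4 genes a list by the largest log2 ratio past 2-fold, and isoforms whose share differed by at least 20 points, with those of ADAM22. Other names were chosen after their values were seen. Like genes are those within 2-fold of a member's mean level. Members and lists were chosen with earlier results of these data known. Gene positions follow the tables (hg19, counted from 1), and promoters come from RefSeq on GRCh38.p14. Whether reads were counted by strand is not given in the sources used here.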

Additional observations from a re-analysis of the deposited data

How the results depend on the processing

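No paired analysis was possible because each table holds 1 pooled value per line, and leaving out replicates was not run for the same reason. Counts past 2-fold depended most on the floor, and are given with the share of all genes under the same setting. With no floor they were 7 of 41 with OVOL1 (0 higher and 7 lower; 17.9% of all genes), 11 of 41 with OVOL2 (20.9%), 18 of 41 in PC3-Epi (30.7%) and 7 of 40 for OVOL2 against OVOL1 (16.1%). At 0.5 FPKM they were 2 of 20 with OVOL2 (7.69%) and 1 of 20 in the direct comparison (3.32%), both adding ADAMTS6, and at 5 FPKM 1 of 7 in PC3-Epi (10.2%). The floor of 0.5 FPKM also added ADAMTS13 (log2 ratio -1.34) and ADAMTS14 (-1.60) to those lower in PC3-Epi. At a threshold of 1.5-fold they were 2, 3, 7 and 2 of 16 (8.29%, 13.9%, 29.7% and 6.82%), and at 4-fold 0 with OVOL2 (2.26%) and 1 in PC3-Epi, ADAM12 (5.17%). The median log2 ratio of members was -0.17 with OVOL1 and 0.16 in the direct comparison with no floor. At 0.5 FPKM it was 0.13 with OVOL2, -0.19 in PC3-Epi and 0.0824 in the direct comparison, and at 5 FPKM -0.16, -0.0359 and -0.0780. No count past 2-fold moved by over 1.5 times under pseudocounts of 0.1 and 1 FPKM, centring, summed isoforms, the status filter, rows of 1 symbol or values of other tables, and 1 isoform differed in share at each isoform floor. Among members over the floor, those reaching 0.5 FPKM and ADAMTS9, no ratio past 2-fold changed sign under these alternatives. With a pseudocount of 0.1 FPKM those of ADAMTS6 with OVOL2 (0.96) and of ADAMTS9 in the direct comparison (-0.89) were under 2-fold, and with a pseudocount of 1 FPKM the log2 ratios of ADAMTS3 (0.82), ADAMTS13 (-0.40) and ADAMTS14 (-0.54) in PC3-Epi, of ADAMTS6 in both comparisons of the OVOL2 line (0.46 and 0.54), and of ADAM23 (-0.63, -0.61 and -0.88) were under 2-fold. So were those of ADAMTS9 in the OVOL2 line (-0.34), in PC3-Epi (-0.58) and in the direct comparison (-0.26), whose alternatives were added after seeing the data. The number of fragments behind values under 1 FPKM is unknown.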
